A study of Mus musculus with 12 samples.

Results

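The genes described here are the mouse histone genes whose symbols begin with H1f and a number, H2ac, H2bc, H3c or H4c, that is, the linker histones and the core histones named for the histone gene clusters. They were chosen by symbol, through the RefSeq transcript that the array files give for each probe, and not by their values. Of 70 genes with such a symbol in the RefSeq table, 32 were on the array, with 38 probes among 41174. Of these 32 genes, 29 passed the filter on dim probes and entered the test, among 21855 items in all. The 29 were 5 somatic linker histone genes of the cluster (H1f1 to H1f5), 4 other H1 genes (H1f0, H1f6, H1f8 and H1f10), 7 H2A genes, 6 H2B genes, 3 H3 genes and 4 H4 genes. This split of the H1 genes was made after their values had been seen. H1f7, H2ac6 and H2ac8 were too dim to be tested. The array reached 23 of the 32 genes on chromosome 13, 5 on chromosome 3, 2 on chromosome 15 and 2 on chromosome 6.

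Lung RNA of 12 FVB/N mice, female and 7 weeks old at the start by the labels (their strain tag reads FVB/NJ), was hybridised to 1-colour Agilent arrays, 1 array per mouse and 3 per group. PBS mice (arrays PBS 1, 2 and 3) had weekly PBS for 16 weeks, and LPS mice (LPS 1, 5 and 6) had 5 ug of bacterial lipopolysaccharide by nose each week for 16 weeks. NNK mice (NNK 2, 3 and 5) had 3 mg of the tobacco nitrosamine NNK by intraperitoneal injection during the first 4 weeks, and LPS/NNK mice (2, 3 and 6) had both agents. The lungs were taken 1 week after treatment ended, the labels give no vehicle for mice on NNK alone, the labels disagree on how often NNK was injected, and it is not said whether tumour was in the tissue or whether NNK mice had the age of the others at death. The study's title asks whether chronic inflammation from LPS promotes lung tumours caused by NNK. The type 2, type 1 and club cell markers Sftpc, Ager and Scgb1a1 were well above background on all 12 arrays. In whole tissue, a change in the number of cells of a type and a change of RNA per cell cannot be told apart.

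Nuclear DNA is wrapped around octamers of the core histones H2A, H2B, H3 and H4, and the linker histone H1 binds where DNA enters and leaves. Most clustered genes are transcribed in S phase, when new DNA needs histones, under the control of NPAT, and their mRNAs end in a stem-loop that SLBP and the U7 snRNP process, in place of a poly(A) tail. Some also make polyadenylated transcripts, and the labelling kit used here primes from poly(A). H1f0 and H1f10 lie outside the clusters and are replication-independent, H1f6 and H1f7 are testis H1 genes, H1f8 is the oocyte H1, and H2ac1 and H2bc1 are the neighbouring genes of the testis H2A and H2B. Paralogs within a family are nearly identical, so a probe may read several of them.

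The promoters of the families are shown because the families behaved differently on these arrays, as described after them. RefSeq promoters (GRCm38.p6) were found for 28 of the 32 genes, and the 250 bases before each start were searched on both strands for CCAAT (the CCAAT box), TATAAA (the TATA box), AACACA (the core of the H1 box) and ATTTGCAT (the octamer), motifs and windows being chosen after the values were seen. The letters of the 4 motifs do not contain each other. In the windows printed here, 5′ to 3′ on the gene's strand and ending at the base before the start, capitals mark matches to the motifs, with ATTGG for the CCAAT box and ATGCAAAT for the octamer where the match is on the other strand. In the H1 windows the CCAAT, TATA and H1 boxes are capitalised, and in the others the CCAAT box, the TATA box and the octamer. The 5 somatic H1 promoters come from chr13:23738677-23738806 (H1f2), chr13:23554902-23555031 (H1f3), chr13:23622559-23622688 (H1f4, minus strand), chr13:21780626-21780755 (H1f5, minus strand) and chr13:23763538-23763667 (H1f1).
H1f2: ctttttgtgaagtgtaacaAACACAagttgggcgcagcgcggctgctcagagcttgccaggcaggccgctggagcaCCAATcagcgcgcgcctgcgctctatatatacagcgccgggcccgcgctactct
H1f3: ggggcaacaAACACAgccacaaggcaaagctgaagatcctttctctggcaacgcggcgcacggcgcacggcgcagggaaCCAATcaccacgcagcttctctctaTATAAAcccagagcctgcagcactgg
H1f4: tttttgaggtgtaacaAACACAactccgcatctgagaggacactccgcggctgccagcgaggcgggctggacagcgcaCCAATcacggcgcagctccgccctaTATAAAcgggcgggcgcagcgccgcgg
H1f5: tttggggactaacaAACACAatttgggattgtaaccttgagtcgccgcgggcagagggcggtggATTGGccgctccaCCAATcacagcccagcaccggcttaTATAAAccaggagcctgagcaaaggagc
H1f1: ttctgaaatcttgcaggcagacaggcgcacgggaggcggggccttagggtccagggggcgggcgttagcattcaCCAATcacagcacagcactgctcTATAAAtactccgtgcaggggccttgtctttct

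CCAAT was found before all 5 somatic H1 genes, TATAAA before 4 (not H1f2), and AACACA before 4 (not H1f1). Over all 32851 promoters of the table, 33.8% held CCAAT, 12.4% TATAAA, 15% AACACA and 1.6% ATTTGCAT.

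For H2A and H2B the windows shown are of the H2A gene with the largest change, of the H2A gene H2ac20, whose neighbour H2bc21 is an H2B gene, and of H2bc12 and H2bc14, H2B genes above background on every array. They come from chr13:23750948-23751087 (H2ac4), chr3:96220881-96221090 (H2ac20, minus strand), chr13:22035681-22035820 (H2bc12) and chr13:21721904-21722043 (H2bc14).
H2ac4: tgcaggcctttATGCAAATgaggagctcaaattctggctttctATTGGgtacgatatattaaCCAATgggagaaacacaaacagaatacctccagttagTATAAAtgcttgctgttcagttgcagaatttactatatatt
H2ac20: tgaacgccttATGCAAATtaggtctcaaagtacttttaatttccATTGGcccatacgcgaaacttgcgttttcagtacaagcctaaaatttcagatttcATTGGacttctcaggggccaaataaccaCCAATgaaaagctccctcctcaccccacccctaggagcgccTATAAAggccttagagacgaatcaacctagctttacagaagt
H2bc12: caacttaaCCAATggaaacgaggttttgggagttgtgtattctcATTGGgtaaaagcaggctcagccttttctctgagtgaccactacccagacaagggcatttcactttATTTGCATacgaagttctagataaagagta
H2bc14: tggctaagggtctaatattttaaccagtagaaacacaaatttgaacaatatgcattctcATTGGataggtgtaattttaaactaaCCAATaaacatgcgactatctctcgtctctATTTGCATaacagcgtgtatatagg

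CCAAT stood before 9 of 9 H2A genes and 4 of 4 H2B genes with a promoter in the table. ATTTGCAT stood before 5 of 9 H2A genes and 4 of 4 H2B genes, and before none of the 5 somatic H1 and 3 H4 genes. A match describes these letters and is not a binding site.

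The arrays differed in ways that bear on all values below. The 75th percentile of processed signal, to which each array was scaled, was 699 to 984 on the PBS arrays and 183 to 509 on the treated arrays, and 70.2% to 73.1% of spots were well above background on PBS arrays against 55.6% to 67.5% on treated ones. The spike-in control RNA was dimmer on the PBS arrays (median log2 signal 9.05 to 10.09) than on treated ones (10.47 to 11.39). Levels are therefore relative to the other genes of the same array: log2 of the processed signal with the array's 75th percentile at 0. Scaled to the spike-in RNA in their place, an alternative added after the data were seen, the median histone gene lay below PBS, at −0.95 in LPS, −1.01 in NNK and −0.45 in LPS/NNK, and the median of all items at −2.60, −2.71 and −2.98. The spike-in scaling called 2, 0 and 2 of 29 histone genes higher and 12, 11 and 12 lower than PBS, where it called 0.865%, 0.124% and 0.714% of all items higher and 87.7%, 91.4% and 90.7% lower, so every rise reported below is a rise relative to the rest of the array. PBS 1 and PBS 2 had the Y-linked genes Ddx3y, Eif2s3y, Kdm5d and Uty above background and Xist not, against the female label, and counts without them are given. PBS 2 was also scanned on another day than the other arrays.

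Against PBS, most of the H1, H2A and H4 genes rose in all 3 treated groups, and the H2B genes did not. A gene was called where limma's moderated test over all 21855 items gave a Benjamini-Hochberg adjusted p under 0.05. In LPS lungs 19 of 29 histone genes rose and 1 fell, where 26.1% of all items rose and 29.9% fell (56% called). In NNK lungs 19 rose and none fell, where 27.8% of items rose and 23.7% fell (51.5% called). In LPS/NNK lungs 19 rose and 2 fell, where 27.9% of items rose and 27.1% fell (55.1% called). The median change of the 29 genes was 1.59, 1.74 and 2.50 on the log2 scale, against −0.06, 0.04 and −0.04 over all items. The 3 comparisons share the PBS arrays. Without PBS 1 and PBS 2, with PBS 3 assumed to vary like the other groups, 17, 17 and 18 histone genes rose, where 13%, 12.7% and 17.5% of items did, and 1, 0 and 0 fell, where 13%, 7.02% and 12.8% of items did. H1f6, H2bc6 and H3c1 were above background on fewer than 2 arrays of at least 1 group and passed the filter on dim probes through other groups, so a difference between those groups was to be found, and nothing is read from their calls. Of the 26 other genes, 18, 17 and 17 rose and 1, 0 and 1 fell. On the 2 slides that held a PBS and a treated array, NNK 2 exceeded PBS 3 in 28 of 29 genes (median 2.30) and LPS/NNK 6 exceeded PBS 1 in 23 (median 2.64). Each pair sets 1 mouse against 1 mouse, and the same count over all items was not made, so these counts only describe the pairs.

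**Figure D1:**
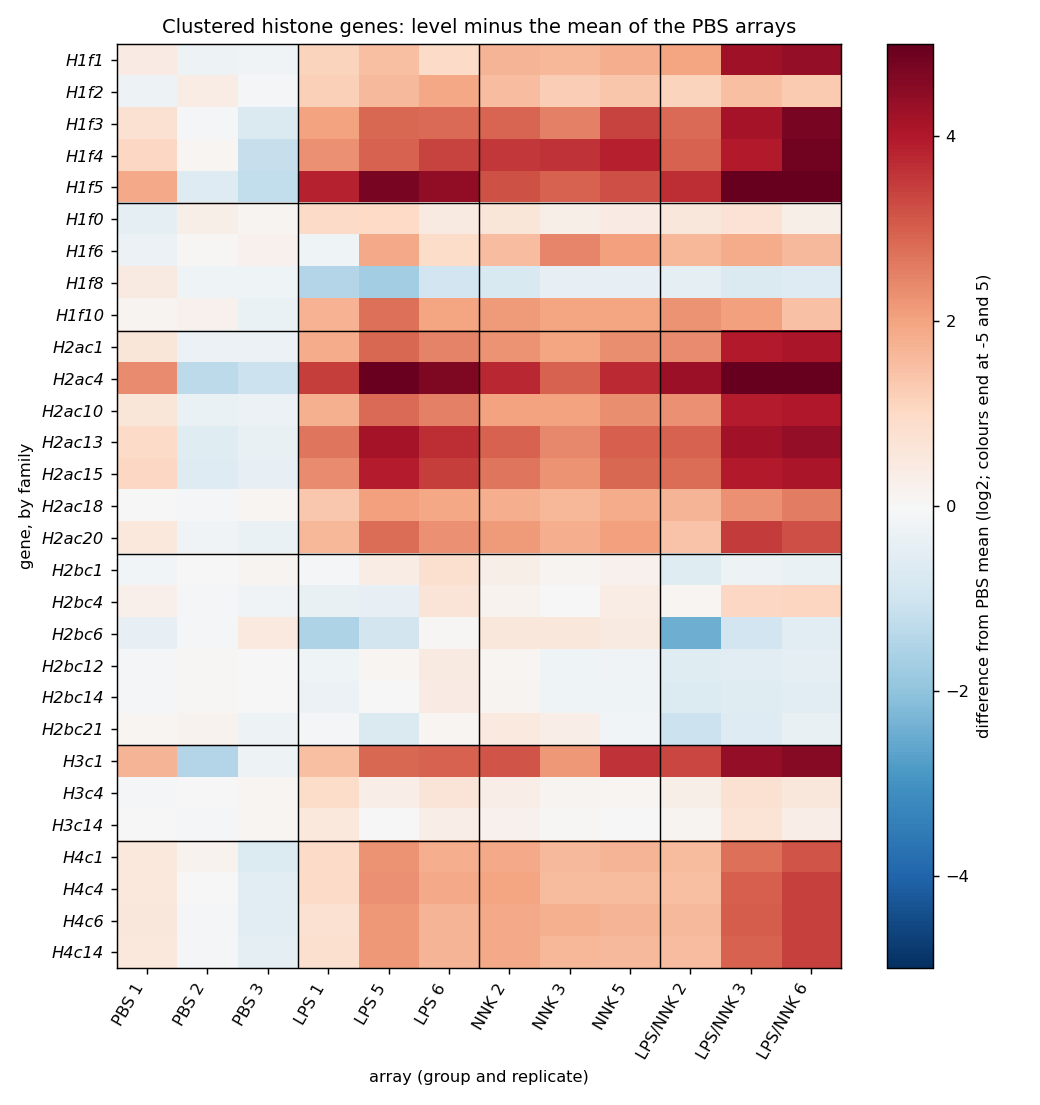
Level of each of the 29 tested histone genes (rows, by family) on each of the 12 arrays (columns), as the log2 difference from the mean of the PBS arrays. H1f1 to H1f5, the H2A genes, H3c1 and the H4 genes were above that mean on every treated array, and among the H2B genes H2bc6 and H2bc21 were below it and H2bc4 above it on LPS/NNK 6, while the family's median stayed between −0.64 and 0.43 on all arrays.

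The somatic linker histones compact the fibre of nucleosomes. Of H1f1 to H1f5, 4 rose in LPS, 5 in NNK and 5 in LPS/NNK, with family medians of 2.58, 2.93 and 3.90 on the log2 scale. H1f5 stood at −0.89, −3.43 and −4.02 on the PBS arrays, 1.07, 1.95 and 1.65 in LPS, 0.42, 0.18 and 0.43 in NNK, and 0.90, 2.53 and 3.02 in LPS/NNK. Every treated array was above every PBS array, and PBS 1 lay well above the other PBS arrays. The log2 change was 4.34 (SE 0.67, adjusted p = 0.00023) in LPS, 3.13 (SE 0.67, adjusted p = 0.0023) in NNK and 4.93 (SE 0.67, adjusted p = 7.2e-05) in LPS/NNK.

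H1f4 measured 0.67, −0.28 and −1.50 in PBS, 1.94, 2.60 and 2.99 in LPS, 3.15, 3.25 and 3.51 in NNK, and 2.58, 3.62 and 4.47 in LPS/NNK. Its 3 NNK arrays lay close together and above all LPS arrays. The changes against PBS were 7.35-fold in LPS, 12.7-fold in NNK and 15.2-fold in LPS/NNK (adjusted p = 0.00062, 0.00026 and 6.1e-05). H1f2 measured 2.13, 2.77 and 2.30 in PBS, 3.60, 4.02 and 4.35 in LPS, 3.93, 3.64 and 3.80 in NNK, and 3.53, 3.91 and 3.72 in LPS/NNK. No treated array reached down to PBS, and the 3 treated groups overlapped. Its rises were 3.01-fold, 2.62-fold and 2.49-fold (adjusted p = 0.0003, 0.00099 and 0.00089). H1f3 was above background on 2 of 3 PBS arrays and on all others, and rose by 2.58, 2.93 and 3.90 on the log2 scale (adjusted p = 0.00072, 0.00051 and 3.5e-05).

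H1f1, whose product is found in fewer tissues of the mouse than the other somatic H1 proteins, was the last of the set. Its group means rose in the order PBS, LPS, NNK and LPS/NNK, as did those of H1f3 and H1f4. It measured −4.20, −4.85 and −4.79 in PBS, −3.49, −3.10 and −3.68 in LPS, −2.91, −2.94 and −2.79 in NNK, and −2.65, −0.40 and −0.23 in LPS/NNK. The 4 groups did not overlap, and LPS/NNK 3 and 6 lay far above LPS/NNK 2. The rise against PBS was 3.33-fold in NNK (adjusted p = 0.010) and 11.5-fold in LPS/NNK (adjusted p = 7.8e-05). In LPS the change of 1.19 (SE 0.49, adjusted p = 0.052) missed the threshold.

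**Figure D2:**
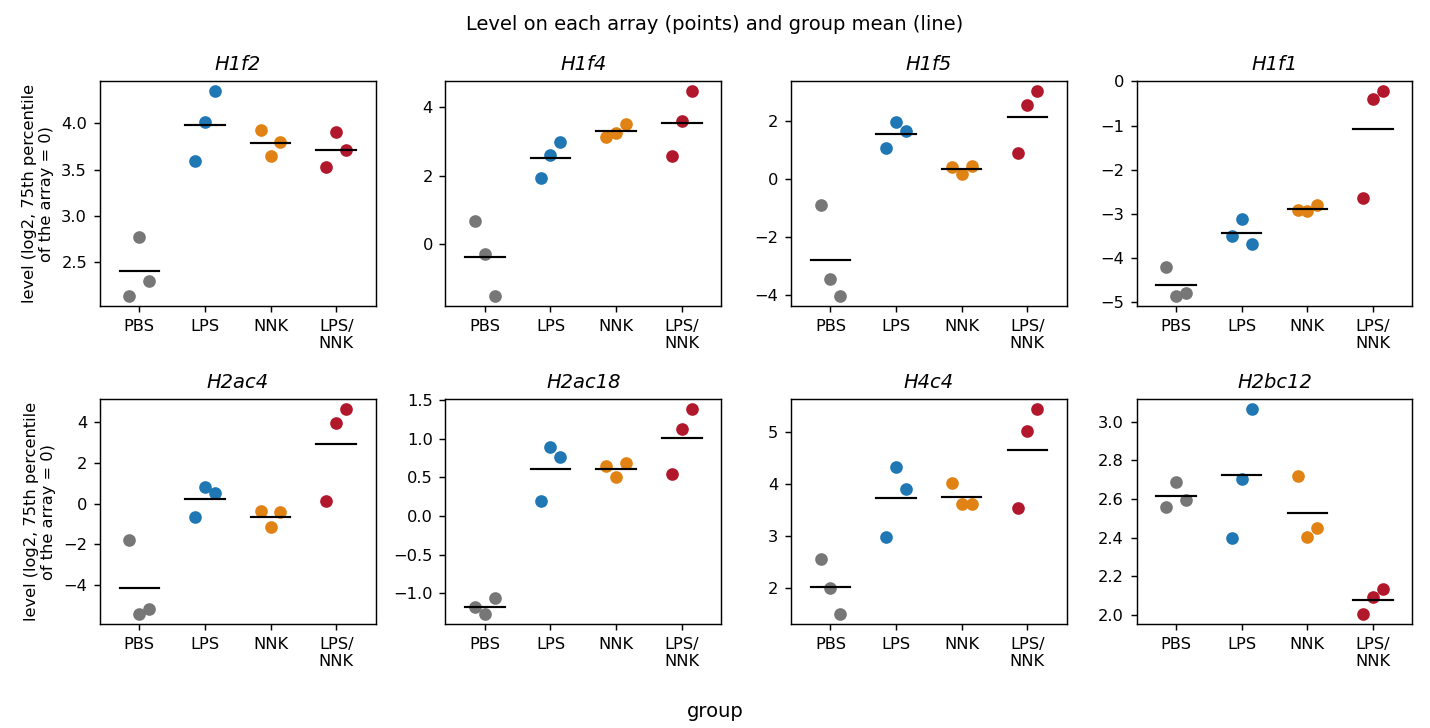
Level of 8 histone genes on each array (points; log2, 75th percentile of the array at 0) with the mean of each group (line). In H1f1 the groups do not overlap and 2 LPS/NNK arrays stand high, and in H2bc12 all 3 LPS/NNK arrays lie below the PBS arrays.

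All 7 H2A genes tested rose in each treated group against PBS, with medians of 2.40 in LPS, 2.17 in NNK and 3.47 in LPS/NNK. H2ac4 had the largest change of all 29 genes in LPS/NNK. It measured −1.76, −5.42 and −5.19 in PBS, −0.65, 0.83 and 0.55 in LPS, −0.35, −1.16 and −0.38 in NNK, and 0.15, 3.99 and 4.64 in LPS/NNK. All treated arrays exceeded all PBS arrays, and the spread was wide, with PBS 1 high among PBS and LPS/NNK 2 low in its group. The changes were 4.37, 3.50 and 7.05 (SE 1.05 each, adjusted p = 0.0036, 0.015 and 0.00013). H2ac18, on chromosome 3, was far tighter, at −1.18, −1.27 and −1.07 in PBS, 0.19, 0.89 and 0.76 in LPS, 0.64, 0.51 and 0.68 in NNK, and 0.54, 1.12 and 1.38 in LPS/NNK. Its rises were 3.45-fold, 3.44-fold and 4.55-fold (adjusted p = 0.00017, 0.00031 and 3.2e-05).

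H2ac13 measured −1.04, −2.58 and −2.34 in PBS, 0.67, 2.17 and 1.71 in LPS, 0.96, 0.43 and 1.02 in NNK, and 0.95, 2.23 and 2.42 in LPS/NNK. Its groups did not overlap with PBS, and LPS 1 and LPS/NNK 2 were the low arrays of their groups. It rose 11.3-fold, 6.90-fold and 14.4-fold (adjusted p = 0.00011, 0.0007 and 4.1e-05). The H2ac15 probe followed it, each probe centred on its own mean, within 0.27 on every array, and those of H2ac1 and H2ac10 followed each other within 0.18. Such pairs cannot be told apart here as separate genes. Testis H2ac1 and H2ac10 rose by 2.40 and 2.38 in LPS, 2.17 and 2.11 in NNK, and 3.47 and 3.41 in LPS/NNK (log2). H2ac20 rose by 2.25, 2.0 and 2.72 (adjusted p = 0.0014, 0.0035 and 0.00034).

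None of the 6 H2B genes rose against PBS in any treated group, and H2bc14 fell in LPS/NNK. The dim H2bc6 was called lower there too, but it passed the filter through groups where it was higher, so nothing is read from that call. The family medians were −0.01 in LPS, 0.20 in NNK and −0.58 in LPS/NNK. H2bc12 measured 2.56, 2.69 and 2.59 in PBS, 2.40, 2.70 and 3.06 in LPS, 2.72, 2.40 and 2.45 in NNK, and 2.0, 2.09 and 2.13 in LPS/NNK. PBS, LPS and NNK overlapped, and LPS/NNK lay below all other arrays. The 95% interval of its change was −0.38 to 0.59 in LPS and −0.58 to 0.40 in NNK, so a rise of the size of the H2A genes lay outside it. In LPS/NNK its change of −0.54 missed the threshold (adjusted p = 0.058). H2bc14, whose probe followed that of H2bc12 within 0.07, fell by 0.61 (SE 0.23, adjusted p = 0.036).

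The neighbours H2ac20 and H2bc21 show the contrast within 1 gene pair. H2bc21 measured −0.93, −0.84 and −1.28 in PBS, −1.08, −1.75 and −0.92 in LPS, −0.52, −0.69 and −1.14 in NNK, and −2.08, −1.65 and −1.40 in LPS/NNK. Its LPS and NNK arrays overlapped PBS, and its LPS/NNK arrays lay below PBS. The changes of −0.24, 0.23 and −0.69 were not called (adjusted p = 0.50, 0.52 and 0.055). H2bc1, the testis H2B next to H2ac1, changed by 0.36, 0.22 and −0.40 with no call, and H2bc4 by −0.06, 0.19 and 0.72 with no call. H2bc6 was above background on every PBS and NNK array and on no LPS or LPS/NNK array, so it entered the test through PBS and NNK alone. Its dim arrays give only a bound, and no fold against PBS is given. The H2B counts moved with scaling. After quantile normalization 0, 2 and 3 H2B genes fell against PBS in LPS, NNK and LPS/NNK, and after cyclic loess 1, 2 and 4. Of all items 30.7%, 26.2% and 29.2% fell after quantile normalization, and 30.3%, 26.7% and 28.7% after cyclic loess. With each array centred on its median 1 H2B gene rose in LPS and 1 in LPS/NNK, where 37.4% and 35.6% of items rose. Whether these H2B counts differ from the shares of all items was not tested. Without PBS 1 and PBS 2 no H2B gene was called against PBS.

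**Figure D3:**
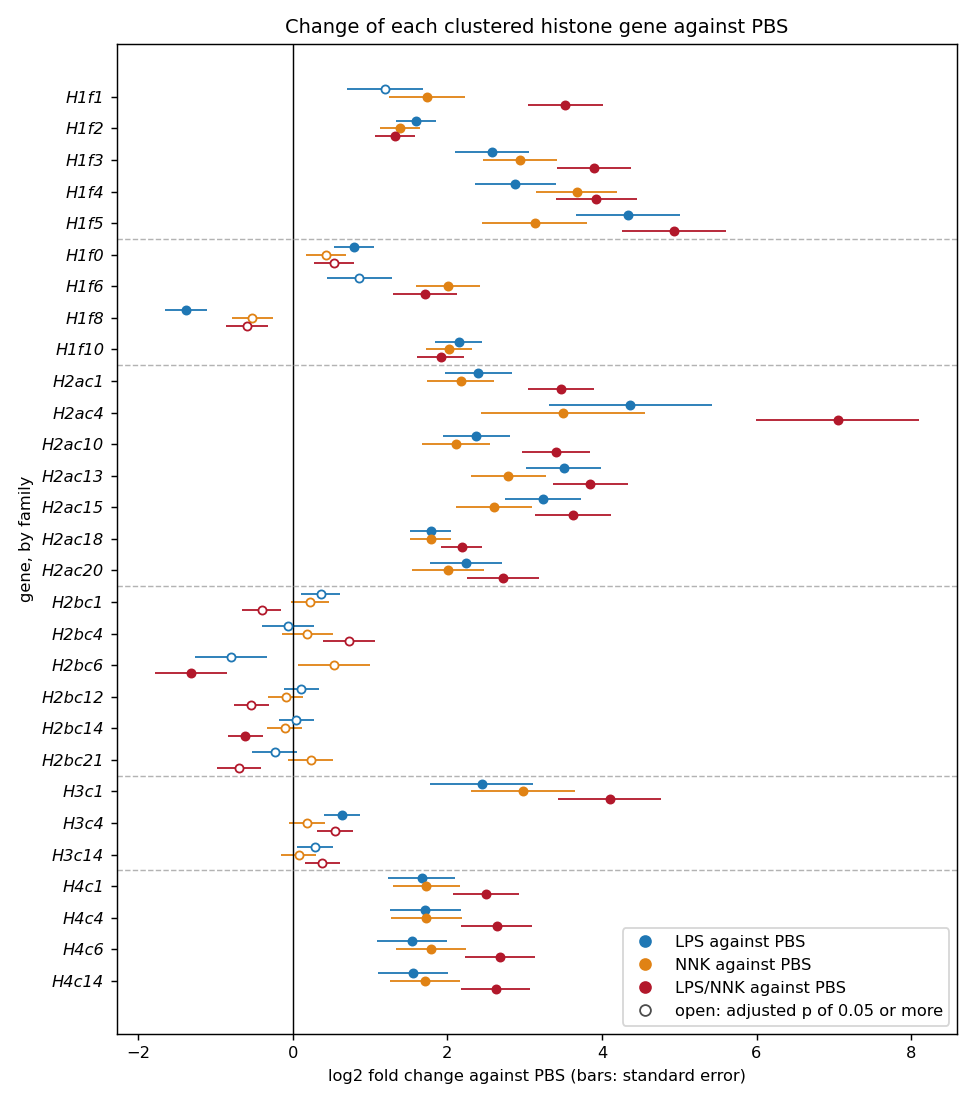
Log2 fold change against PBS of each tested histone gene in LPS, NNK and LPS/NNK lungs, with its standard error, by family. Filled points passed an adjusted p of 0.05, and the 7 H2A and 4 H4 genes did so in all 3 comparisons, none of the 6 H2B genes with a rise.

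All 4 H4 genes rose in each treated group, with medians of 1.61 in LPS, 1.72 in NNK and 2.63 in LPS/NNK. With normexp background correction none of the 4 was called in NNK, where 30.2% of items rose, and neither were H1f2, H2ac10 and H2ac20. With a block for replicate number none of the 4 H4 genes was called in LPS. H4c4 measured 2.55, 2.0 and 1.50 in PBS, 2.98, 4.32 and 3.90 in LPS, 4.01, 3.62 and 3.61 in NNK, and 3.53, 5.01 and 5.43 in LPS/NNK. Every treated array was above every PBS array. It rose 3.28-fold, 3.31-fold and 6.23-fold (adjusted p = 0.0069, 0.0078 and 0.0004), and its other probe rose too. H4c1, H4c6 and H4c14 rose by 1.54 to 1.67 in LPS, 1.71 to 1.79 in NNK and 2.50 to 2.68 in LPS/NNK, and the probes of H4c6 and H4c14 followed each other within 0.09 although the genes lie on chromosomes 13 and 3. The probes of all 4 H4 genes followed one another at least as closely as those of H2ac13 and H2ac15. The 4 genes therefore cannot be told apart here as separate genes.

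Among the H3 genes, H3c1 was above background on 1 PBS, 2 LPS, 2 NNK and all 3 LPS/NNK arrays and passed the filter through LPS/NNK alone. It measured −5.23, −8.38 and −7.16 in PBS, −5.44, −4.04 and −3.96 in LPS, −3.78, −4.74 and −3.31 in NNK, and −3.57, −2.52 and −2.38 in LPS/NNK, where LPS 1 lay below PBS 1 and the NNK and LPS/NNK arrays above all PBS arrays. With most PBS values not above background, its levels are given as a description, with no fold or test. H3c4 and H3c14 were above background on all 12 arrays. H3c4 measured 4.38, 4.47 and 4.54 in PBS, 5.38, 4.80 and 5.11 in LPS, 4.81, 4.58 and 4.55 in NNK, and 4.75, 5.22 and 5.05 in LPS/NNK. All its treated arrays were above PBS, by little in NNK. Its rise in LPS was 1.55-fold (adjusted p = 0.031), with a reversed sign and no call after quantile normalization (−0.054) and cyclic loess (−0.18), and in NNK and LPS/NNK it was not called (0.18 and 0.54). H3c14 changed by 0.29, 0.08 and 0.38 with no call.

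Of the H1 genes outside the somatic set, H1f10 rose in all 3 comparisons. It measured −3.94, −3.90 and −4.44 in PBS, −2.37, −1.35 and −2.13 in LPS, −1.97, −2.13 and −2.12 in NNK, and −1.85, −2.05 and −2.64 in LPS/NNK. The treated groups overlapped one another and not PBS. The rises were 4.42-fold, 4.06-fold and 3.76-fold (adjusted p = 0.00012, 0.00032 and 0.0002). H1f0 could not be settled: the brightest of its 3 probes rose by 0.79 in LPS (adjusted p = 0.019), and measured 0.80, 1.51 and 1.39 in PBS and 2.18, 2.23 and 1.67 in LPS, while the other 2 probes fell by 2.10 and 1.82 there. These 2 probes also fell by 2.91 and 2.61 in NNK and by 3.53 and 2.75 in LPS/NNK, where the brightest probe changed by 0.43 and 0.53 with no call.

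The oocyte gene H1f8 was the 1 histone gene that fell in LPS, by 1.38 (SE 0.27, adjusted p = 0.00097). H1f8 was above background on 2 of 3 LPS arrays, and with normexp background correction this fall was not called (limma adjusted p = 0.82). It measured −2.11, −2.77 and −2.75 in PBS and −4.00, −4.27 and −3.49 in LPS, with no overlap, and its changes of −0.52 in NNK and −0.60 in LPS/NNK were not called. Testis H1f6 was above background on no PBS or LPS array, 3 NNK arrays and 1 LPS/NNK array, and passed the filter through NNK alone. As a description, with no test, it was at least 3.39-fold higher in NNK than in PBS, and no bound is given for LPS/NNK, where 1 of 3 arrays measured it. The bound sets the mean of the brighter group against the lowest signal of probes well above background on the PBS arrays.

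LPS/NNK lungs were compared with each single agent to see whether the combination went beyond it. Against NNK alone, 4 of 29 histone genes were called, where 17.3% of all items were: H2ac4 and H1f1 rose and H2bc21 and H2bc6 fell (7.92% of items rose and 9.35% fell). The median change was 0.54, against −0.06 over all items. H2ac4 rose 11.7-fold (adjusted p = 0.035) and H1f1 3.46-fold (adjusted p = 0.025). H2bc21 fell by 0.92 (SE 0.29, adjusted p = 0.041). H2bc6 passed the filter only where it was higher, so nothing is read from its call. As a description, it was at least 1.13-fold higher in NNK than in LPS/NNK. Against LPS alone only H1f1 was called, where 4.11% of items were (2.85% rose and 1.26% fell), and it rose 5.04-fold (adjusted p = 0.023). The median change was 0.60, against 0.11 over all items.

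LPS/NNK 2 bore on both comparisons. In every tested histone gene but H1f0, H1f6, H1f8 and H1f10 it was the lowest array of its group. Without it, with the spread taken from the 11 other arrays, 12 histone genes rose against NNK and 1 fell, and 11 rose against LPS and none fell. The 1 that fell was H2bc6, from whose call nothing is read. The share of all items called grew as well, to 26.6% against NNK (13.2% rose and 13.4% fell) and 22.1% against LPS (13.2% rose and 8.88% fell). In that fit H2ac4 rose by 4.94 against NNK and 4.07 against LPS (log2), H2ac1 by 1.86 and 1.63, H4c4 by 1.48 and 1.49, and H2ac20 by 1.37 and 1.13. Without NNK 2, without NNK 3 and with normexp background correction no histone gene was called against NNK in limma, and 7, 8 and 10 had an unadjusted p under 0.05. Of all items 7.46%, 7.22% and 1.62% were called in these fits. Against LPS none was called without LPS 1, 5 or 6 or without LPS/NNK 3 or 6, with 5, 15, 10, 6 and 5 genes at an unadjusted p under 0.05. There 1.37%, 1.64%, 2.61%, 0.361% and 0.499% of items were called, so few calls were to be had. On the slides that held both groups, LPS/NNK 2 exceeded NNK 3 in 15 of 29 genes (median 0.04) and LPS/NNK 3 exceeded NNK 5 in 22 (median 0.71). These counts also describe pairs of 1 mouse against 1 mouse, with no count over all items.

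Array brightness ran with these values. LPS/NNK 2 had the highest 75th percentile of its group (509, against 192 and 183), and LPS 1, the lowest LPS array in all 7 H2A and 4 H4 genes, the highest of its group (487, against 266 and 268). The median of the H2A genes, relative to the PBS mean, was 2.35 on LPS/NNK 2 and 3.96 and 4.09 on LPS/NNK 3 and 6, and 1.84 on LPS 1 against 2.88 and 2.51 on LPS 5 and 6. Within PBS the order was the other way, with the brightest array, PBS 1, at 0.61 and the others at −0.33 and −0.34. The H2B median lay between −0.64 and 0.43 on all 12 arrays. The part of array brightness in the histone values was not tested.

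**Figure D4:**
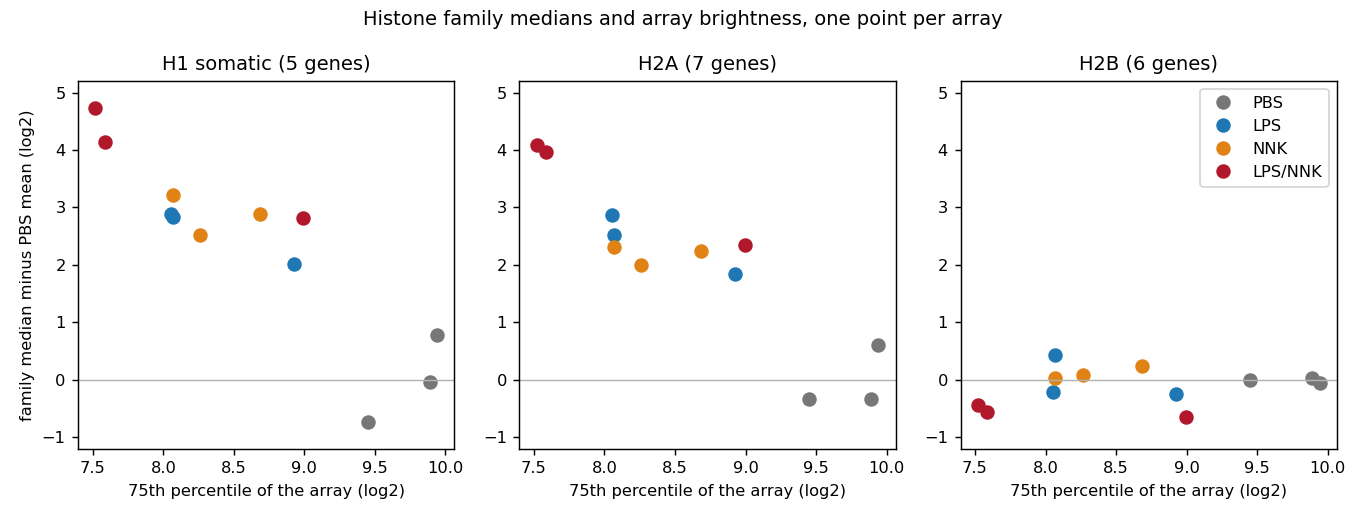
Median level of the somatic H1, H2A and H2B genes on each array relative to the PBS mean (log2, vertical) against the 75th percentile of the array (log2 signal, horizontal). The H1 and H2A medians are high on the dim treated arrays, most on LPS/NNK 3 and 6, and the H2B medians stay between −0.64 and 0.43.

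The interaction of LPS and NNK asks whether the combination differs from the sum of the separate log2 changes. It was called for 9 of 29 histone genes, where 38.7% of items were called, 8 of them below the sum (18.6% of items) and 1 above (20.1%). The median was −0.98, against 0.01 over all items. The 8 below were H1f10 (−2.26), H1f2 (−1.66), H2ac18 (−1.38), H2ac13 (−2.44), H1f4 (−2.62), H2ac15 (−2.22), H2bc1 (−0.98) and H1f5 (−2.53), and H1f8 (1.31) was above. H1f2, for example, rose 3.01-fold with LPS, 2.62-fold with NNK and 2.49-fold with both. In H2ac4 and H1f1 the interaction was not called (−0.81, 95% interval −4.02 to 2.40, and 0.60, −0.89 to 2.08). Without PBS 1 and PBS 2, 6 genes were called, all below the sum (12% of items called, 6.2% below), and under normexp background correction none in limma (0.325% of items), with 7 at an unadjusted p under 0.05.

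Genes of the processes that make or use histones were counted from 4 lists. Of 33 S phase and mitosis genes, 13 rose and 3 fell in LPS, 4 rose and 6 fell in NNK, and 17 rose and 2 fell in LPS/NNK against PBS, with medians of 0.58, 0.09 and 0.82. As shares these are 39.4%, 12.1% and 51.5% higher and 9.09%, 18.2% and 6.06% lower, where 26.1%, 27.8% and 27.9% of all items rose and 29.9%, 23.7% and 27.1% fell, so that in NNK fewer of these genes rose than of the array. The replication licensing factor Cdt1 measured 2.17, 0.92 and 0.97 in PBS, 2.83, 3.35 and 3.60 in LPS, 2.60, 2.54 and 3.04 in NNK, and 3.31, 4.16 and 3.90 in LPS/NNK. It rose in each group, by 1.91, 1.38 and 2.44 (adjusted p = 0.00075, 0.0066 and 0.00012), with no treated array at or below PBS. The mitotic kinase Plk1 rose by 1.92, 1.19 and 2.55, and in NNK Mcm2 (1.04) and E2f2 (0.66) rose as well. The sliding clamp Pcna and the spindle checkpoint kinase Bub1 fell in NNK, by 0.95 and 1.24, as did Ccnb1, Cdk2, Cdc6 and Tyms. Those that fell in LPS were Bub1, Ccne2 and Pcna (−1.37, −1.22 and −0.68), and in LPS/NNK Cdk2 and Cdca7 (−0.86 and −0.76).

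Against NNK, 14 of the 33 genes rose in LPS/NNK, where 7.92% of items did, and none fell, among them Aurka (1.81), Tk1 (1.79), Birc5 (2.34) and Ccnb1 (1.98). Birc5, a mitotic inhibitor of cell death, measured −0.28, −0.62 and 0.06 in NNK and 1.35, 2.48 and 2.34 in LPS/NNK, with no overlap. Against LPS 1 rose, E2f2 (1.04). Without LPS/NNK 2 the counts were 19 higher and 1 lower against NNK and 7 higher and 1 lower against LPS (13.2% of items higher in both). Without PBS 1 and PBS 2, 5 rose and none fell in NNK against PBS (12.7% and 7.02% of items), where PBS 1 had the highest Plk1, Cdt1, Birc5 and Pcna of its group. A test of the histone genes against these lists was not made.

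**Figure D5:**
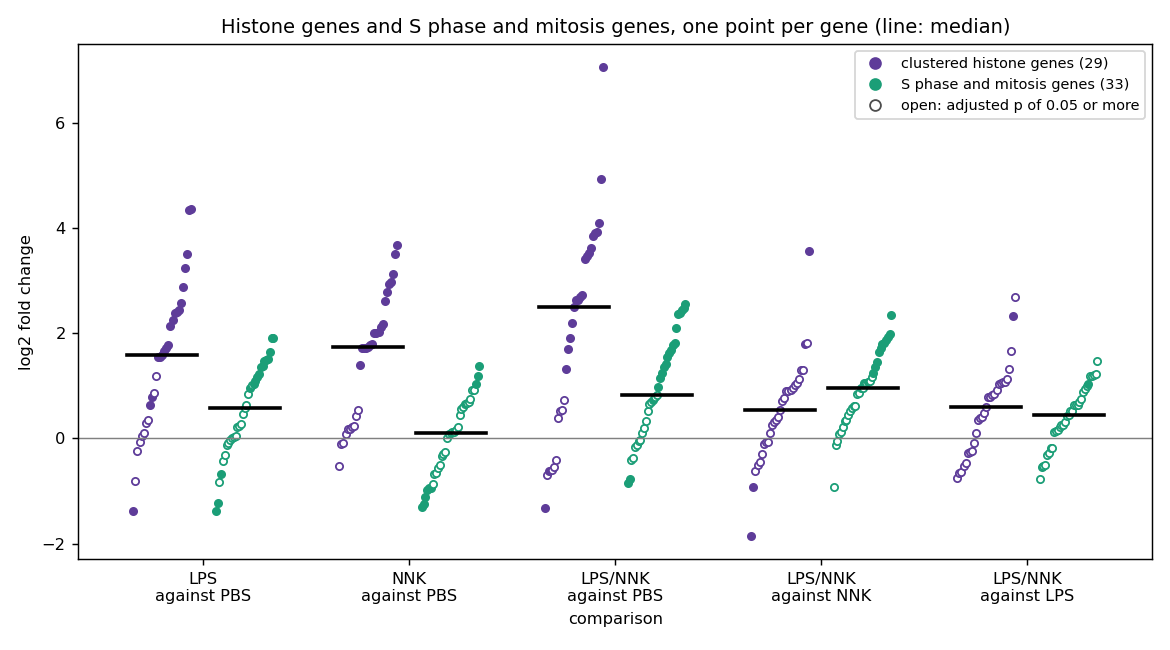
Log2 fold change of the 29 histone genes and 33 S phase and mitosis genes in 5 comparisons of groups, 1 point per gene, filled where called, with the median as a line. In NNK against PBS the medians are 1.74 for the histone genes and 0.09 for the S phase and mitosis genes.

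Of 21 genes for transcription and 3′ processing of histone mRNA, 5 rose and 6 fell in LPS, 4 rose and 6 fell in NNK, and 6 rose and 3 fell in LPS/NNK. The shares that rose, 23.8%, 19% and 28.6%, and fell, 28.6%, 28.6% and 14.3%, lie near or under those of all items given above, except for the fall in NNK (23.7% of items), and nothing is read from the counts. Lsm11, a protein of the U7 snRNP, measured −2.83, −3.09 and −3.02 in PBS and between −1.79 and −0.95 on every treated array, and rose by 1.86, 1.47 and 1.94 (adjusted p = 3.2e-05, 0.00029 and 1.8e-05). Its partner Lsm10 rose by 0.90, 0.77 and 1.48, the decay factor Upf1 by 1.82, 2.23 and 0.94, and the cleavage factor Cpsf3 by 1.03, 0.92 and 0.71. Cstf2 rose in LPS (1.04) and LPS/NNK (0.75), and the H4 gene activator Hinfp in LPS/NNK (0.65). Npat, the coactivator of histone genes, fell by 1.64 in LPS and 0.99 in NNK, and Casp8ap2 by 1.61 and 1.42, and neither was called in LPS/NNK. Nfyc, Ncbp1 and Ncbp2 fell in LPS/NNK (−1.23, −1.06 and −0.77). Npat measured −3.48, −3.06 and −3.02 in LPS and −1.79, −1.91 and −1.67 in LPS/NNK, with no overlap, and was the 1 gene of this list called between them (1.40, adjusted p = 0.033). Against NNK, Nfyb, Cpsf2 and Hinfp rose (1.12, 0.92 and 0.70) and Upf1 and Nfyc fell (−1.30 and −1.21). Slbp, which binds the stem-loop, was not called against PBS.

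Of 10 histone genes outside the clusters, 4 rose in each comparison with PBS, that is 40%, and none, none and 1 fell. Of all items 26.1%, 27.8% and 27.9% rose and 29.9%, 23.7% and 27.1% fell. H2aj, an H2A variant whose mRNA is polyadenylated, measured 5.39, 4.88 and 4.77 in PBS, 6.55, 7.44 and 7.05 in LPS, 7.02, 6.83 and 6.99 in NNK, and 7.17, 8.59 and 8.58 in LPS/NNK. It rose by 2.0, 1.93 and 3.10, with no overlap with PBS, and H2ax, the variant phosphorylated at DNA breaks, rose by 1.90, 1.51 and 2.27. H4f16 rose by 1.47, 1.39 and 2.32, H2al2a in LPS and NNK (0.71 and 1.19), and the centromere histone Cenpa in LPS/NNK (1.27), where Macroh2a2 fell (−0.98). H4f16 measured −0.39, −0.76 and −1.40 in PBS and 1.77 and 2.23 on LPS/NNK 3 and 6. The clustered H4c1 ran beside it, at 1.07, 0.72 and −0.14 in PBS and 3.32 and 3.71 on those arrays. Whether the H4f16 probe reads clustered H4 genes was not tested, so the counts of this list may repeat theirs. Against NNK, H2aj (1.16) and Cenpa (0.91) rose, and against LPS no gene of the list was called. Of 17 histone chaperone genes, 4 rose and 6 fell in LPS, 2 rose and 5 fell in NNK, and 4 rose and 2 fell in LPS/NNK. The shares, 23.5%, 11.8% and 23.5% higher and 35.3%, 29.4% and 11.8% lower, stand against 26.1%, 27.8% and 27.9% of all items higher and 29.9%, 23.7% and 27.1% lower, and nothing is read from these counts either. Daxx, an H3.3 chaperone, rose by 1.25, 1.28 and 1.71, and its partner Atrx fell by 2.46, 1.81 and 1.58. Rbbp4 rose by 0.83, 0.72 and 0.82, Chaf1b in LPS (1.09) and LPS/NNK (1.24), Asf1b in LPS (0.83) and Nap1l4 in LPS/NNK (0.82), where Nap1l1 fell (−0.78). The others that fell in NNK were Nasp, Asf1a, Anp32e and Rbbp7 (−1.18, −0.80, −0.72 and −0.64).

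Markers of cell types were counted too, and the lists differed in the groups where they rose or fell. Their counts are read against the 26.1%, 27.8% and 27.9% of all items that rose and the 29.9%, 23.7% and 27.1% that fell. The summed linear level of 6 alveolar type 2 markers (the 75th percentile as 1) was 582 to 878 in PBS, 1150 to 1540 in LPS, 1390 to 2060 in NNK and 1230 to 2620 in LPS/NNK, with 5, 5 and 4 rising and 1, 0 and 0 falling. For 9 T cell markers it was 9.55 to 10.2, 45.4 to 56.8, 10.7 to 15.4 and 45.1 to 101, with 7, 3 and 8 rising and 0, 1 and 0 falling. For 7 monocyte and macrophage markers it was 11.4 to 20.7, 115 to 140, 27.5 to 33.5 and 158 to 208, with 6, 4 and 7 rising and 0, 1 and 0 falling. These sums lay above PBS on every treated array.

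For 5 plasma cell markers the sum was 12.6 to 22.2, 105 to 159, 29.1 to 35.2 and 74.3 to 96.3, with 5, 1 and 4 rising and none falling. For 5 erythroid markers it was 518 to 618, 947 to 1470, 1590 to 1900 and 772 to 1980, with 2, 4 and 2 rising and none falling. For 5 testis germ cell markers it was 0.32 to 0.539, 0.688 to 0.862, 0.51 to 0.639 and 0.61 to 0.781, with 3, 4 and 3 rising and none falling, all at low levels. These markers include the histone gene H1f6, whose calls in NNK and LPS/NNK are among those counted. H1f6 passed the filter on dim probes through NNK alone, so nothing is read from the counts of this list. Of 5 B cell markers 3, 0 and 2 rose and 0, 1 and 0 fell, and of 5 megakaryocyte and platelet markers 1, 3 and 0 rose and 1, 0 and 2 fell. Of 4 alveolar type 1 markers 0, 2 and 1 rose and 1, 1 and 2 fell. The lists of 2 club cell, 5 endothelial, 5 neutrophil and 5 heart muscle markers had at most 2 called in a comparison with PBS. The part of these cells in the histone values was not tested.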

How the data were processed

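The files are scanner output of 1-colour Agilent arrays, 1 per mouse, with an intensity for each of 45018 spots (43379 not controls), made with Feature Extraction 10.7.3.1 per the file headers (10.7 in the labels) after Quick Amp labelling per the labels' protocols. The deposited log2 value table of the series, made with Partek per the submitters' processing notes, held the values computed here in 99.92% of cases within 0.01. Each array's 75th percentile was subtracted from its log2 processed signals (gProcessedSignal), spots of a probe were averaged, and 37 probes with outlier spots only were dropped. No spot was saturated.

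A probe was kept where well above background on all 3 arrays of a group (28333 probes), and the probe with the highest mean stood for its gene. Genes were named from RefSeq accessions (24375 probes). One limma 3.58.1 fit (R 4.3.3, with the data.table package at version 1.17.8) held all 12 arrays with a mean per group (8 residual and 5.5 prior degrees of freedom), and p-values, 2-sided, were adjusted over 21855 items. An exact permutation test of 3 arrays against 3 cannot give a p under 0.1. The fit was run on simulated arrays with each item's residual spread, independent noise and 200 of 21855 items changed. Over the 6 comparisons it recovered 0% to 1% of log2 changes of 1, 49% to 84.5% of changes of 2 and 86.5% to 97% of changes of 3. A change near 1 that was not called is therefore not shown to be absent. Far more items were called in the real comparisons with PBS than were changed there, so recovery in the real data may differ. Arrays count as replicates as labelled, and 3 per group limit the precision. Figures used Python 3.11.15 and matplotlib 3.10.9.

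Members, lists, tests and alternatives were chosen with earlier results of these data known. Named with values are called genes of the smallest p per comparison (up to 10 each way), genes of counts of 5 or fewer, genes above background on all 12 arrays, H1f0 and H1f10, and up to 4 genes of each list per comparison with the smallest p; Slbp and Pcna were added for their roles after their values were seen. Alternatives were background correction, scaling, filter, probe choice, slide, replicate number and omitted arrays. The files hold no gMeanSignal column, so normexp was run on the median signal (gMedianSignal, offset 50), against the plan. Replicate numbers did not pair arrays by their values and enter no main result.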

Additional observations from a re-analysis of the deposited data

Results flagged for a closer look

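For 9 of 29 histone genes the effect of LPS differed between mice with and without NNK by the interaction term of the limma fit. Over all items the share called was 38.7%, and under normexp background correction none of the 9 was called. The values, as the change in LPS/NNK minus the sum of the changes in LPS and NNK on the log2 scale, were −2.26 for H1f10 (SE 0.43, adjusted p = 0.0028), −1.66 for H1f2, −1.38 for H2ac18, −2.44 for H2ac13, −2.62 for H1f4, −2.22 for H2ac15, −0.981 for H2bc1 and −2.53 for H1f5, whose adjusted p of 0.0499 lies at the threshold. H1f8 went the other way, at 1.31 (adjusted p = 0.017). All use the PBS arrays, of which PBS 1 stood high in H1f4, H1f5, H2ac13 and H2ac15.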

How the results depend on the processing

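Under every alternative run but spike-in scaling, the counts against PBS, with rises and falls added, stayed within 1.5 times of the reported ones. Under spike-in scaling only the NNK count went outside this range (11 genes). The direction changed there in each treated group: most called genes were lower than PBS, and in the main fit most were higher. Of the 74 called gene results, 46 stayed called in the same direction under normexp, 67 under cyclic loess and 68 under quantile normalization. With the replicate block 64 did so, and under spike-in scaling 10. Leaving out 1 array gave 17 to 21 called genes for LPS against PBS, 18 to 19 for NNK, 19 to 24 for LPS/NNK, 0 to 13 for LPS/NNK against NNK, 0 to 11 for LPS/NNK against LPS and 6 to 10 for the interaction. In the same order, the share of all items called against PBS ran from 46.7% to 60.3%, 39.6% to 56.1% and 46.6% to 57.2%. For LPS/NNK that share ran from 7.22% to 26.6% against NNK and 0.361% to 22.1% against LPS, and for the interaction from 28.5% to 45.7%. Other counts of histone genes that moved were, for LPS/NNK against NNK, 0 under normexp (10 at an unadjusted p under 0.05) and 2 each with no filter on dim probes, slide as a fixed effect, only the groups compared, or spike-in scaling. Of all items 1.62%, 7.64%, 11.9%, 13.3% and 3.13% were called in these settings. For LPS/NNK against LPS the counts were 0 under normexp, with only the groups compared and under spike-in scaling (6, 8 and 3 at an unadjusted p under 0.05, limma) and 4 with the replicate block. The shares of all items were 0%, 0.174%, 0.426% and 8.66%. For the interaction the counts were 0 under normexp (7 unadjusted), 14 with arrays centred on the median, and 5 each with the replicate block and spike-in scaling, where 0.325%, 40.7%, 39.6% and 62.8% of items were called. Replicate numbers are shared by groups, but of 9 same-numbered pairs only 3 deviated together at r over 0.1 (−0.147 to 0.408), and 4 of 12 arrays correlated best with their own number, so the block is given only here. Signs reversed for H2bc6 in LPS/NNK against PBS (1.21) and H1f8 in the interaction (−0.17) under normexp, for H3c4 in LPS under quantile (−0.054) and cyclic loess (−0.18), and for H1f0 in LPS with its probes averaged (−1.04). Apart from the probe average, which takes in probes that fell, the cause was not tested.

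On treated arrays the spike-in RNA was brighter than on PBS arrays (10.47 to 11.39 against 9.05 to 10.09, log2). Their 75th percentile was lower (183 to 509 against 699 to 984). Spike-in scaling, added after the data were seen, therefore lowered the treated arrays against PBS. It reversed the median of the histone genes (−0.95 in LPS, −1.01 in NNK, −0.45 in LPS/NNK and 1.36 in the interaction), though relative to the median of all items these were 1.65, 1.70, 2.54 and −0.99. The genes reversed in LPS were H2ac10 (−0.16), H2ac1 (−0.14), H2ac20 (−0.29), H3c4 (−1.91), H4c6 (−0.99), H4c4 (−0.82), H1f2 (−0.95), H4c14 (−0.99), H4c1 (−0.87), H1f0 (−1.74), H2ac18 (−0.75), H1f10 (−0.39) and H3c1 (−0.094). Those in NNK were H2ac10 (−0.63), H2ac1 (−0.57), H2ac20 (−0.74), H4c6 (−0.96), H4c4 (−1.02), H1f2 (−1.35), H4c14 (−1.03), H4c1 (−1.02), H2ac15 (−0.14), H2ac18 (−0.96), H1f10 (−0.72), H1f1 (−1.01) and H1f6 (−0.74). Those in LPS/NNK were H2ac20 (−0.22), H4c6 (−0.26), H4c4 (−0.31), H1f2 (−1.63), H4c14 (−0.32), H4c1 (−0.45), H2ac18 (−0.76), H1f10 (−1.04) and H1f6 (−1.24), and in the interaction H1f2 (0.67), H2ac15 (0.12), H2bc1 (1.36), H2ac18 (0.95) and H1f10 (0.081).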
